A study of Mus musculus with 4 samples.

Results

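The 10 genes described here are p53 itself (Trp53), its relative p73 (Trp73), the p53 inhibitors Mdm2 and Mdm4, and the p53 target genes Ccng1, Phlda3, Sesn1, Sesn2, Zmat3 and Perp. They were taken by gene name from the deposited gene tables, and all 10 were among the 24319 genes listed. RNA was sequenced from 2 normal prostates of wild-type males at 22 weeks and from 2 TRAMP prostate tumours labelled as late stage at 24 weeks, with 24 to 28 weeks in the labels' protocol. Both groups were adult F1 males from a C57BL/6 by FVB cross. The tumour mice were heterozygous for SV40 T antigen under the rat probasin promoter, which is active in prostate epithelium, so T antigen is confined by design to cells that use that promoter. Whole dissected tissue was used, and the labels do not state that the 2 tumours came from separate mice, so a p-value speaks only of the spread among these 4 libraries, which may be technical.

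p53 is a transcription factor that is kept scarce by the ubiquitin ligase Mdm2 and its partner Mdm4, and that is stabilised when kinases of the DNA damage response or the Arf protein block this degradation. Active p53 binds response elements near genes of growth arrest, apoptosis, repair and metabolism, among them Mdm2, which closes a feedback loop. SV40 large T antigen, the oncogene of the TRAMP model, binds p53 and prevents it from activating its targets, and it also inactivates the retinoblastoma protein.

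Promoter sequences are given first because they show which of these genes hold a match to the p53 response element beside the start site. Elements of p53 targets can also lie outside such windows, in introns for example. RefSeq windows (build GRCm38.p6) of 250 bases before to 50 after each annotated start were present for 8 of the 10 genes, in 11 windows. The p53 response element was searched on the consensus of 2 decamers, with up to 2 mismatches, a spacer of at most 1 base and the fixed C and G of each decamer intact. The consensus is its own reverse complement, so a search of 1 strand covers both. It was found in 224 of all 32851 windows (0.682%), in the windows of Ccng1 and Trp73 among the 10 genes, in 0 of 29 windows of a list of p53 regulators, and in 4 of 36 windows of a list of other p53 targets (Bax, Cdkn1a, Rps27l and Zfp365). A match is a description of letters and not a measured binding site. The stretches below are from the gene's own strand with 20 bases on each side, and capitals mark the match. Those of Ccng1 (chr11:40755442-40755501, minus strand), Cdkn1a (chr17:29090908-29090967, plus strand) and Rps27l (chr9:66946276-66946335, plus strand) had 1 mismatch. Those of Trp73 (chr4:154097200-154097259, minus strand) and Bax (chr7:45467059-45467119, minus strand) had 2. The match of Trp73 lies beside an annotated start inside the gene, which on its own strand begins at 154140208.
Ccng1: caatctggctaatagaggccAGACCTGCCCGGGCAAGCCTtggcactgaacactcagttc
Cdkn1a: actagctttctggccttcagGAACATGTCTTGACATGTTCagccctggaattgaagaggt
Rps27l: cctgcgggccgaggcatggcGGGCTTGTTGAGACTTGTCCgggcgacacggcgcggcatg
Trp73: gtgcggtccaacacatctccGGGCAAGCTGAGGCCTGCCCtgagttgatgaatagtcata
Bax: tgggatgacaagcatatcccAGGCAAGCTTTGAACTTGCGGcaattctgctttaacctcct

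Levels are given as FPKM (fragments per transcript length and library depth) divided by a factor for each library that sets the median gene equal, called scaled FPKM. Fold changes are tumour minus normal on the log2(scaled FPKM + 1) scale, where the added 1 makes changes of low genes look smaller, and p-values are from limma, adjusted by Benjamini-Hochberg across the 13162 genes tested, called at 0.05. The figure after each ± is the standard error of the fold change. The libraries held between 986717 and 1580686 fragments as implied by the deposited confidence intervals. Of all genes tested, 9.85% were called higher and 8.27% lower in the tumours, 18.1% together. Of the 10 p53 genes, 1 was called higher (Trp53), 1 was called lower (Perp) and 8 did not pass, a share close to that of all genes. At an unadjusted p under 0.05 there were 4, beside 5242 of all genes tested (39.8%), so this count too is at the background. The scaling between libraries carries weight here. The factors differed between the groups by 0.94 on the log2 scale, and without them every fold change of a well expressed gene lies higher by about that amount. Over all genes, 1296 were called higher and 1088 lower, against 3681 and 427 for FPKM as deposited and 2537 and 554 for scaling to the FPKM sum. Without normal 1 or without normal 2, limma called no gene, so every call given here was lost in those fits.

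**Figure D1:**
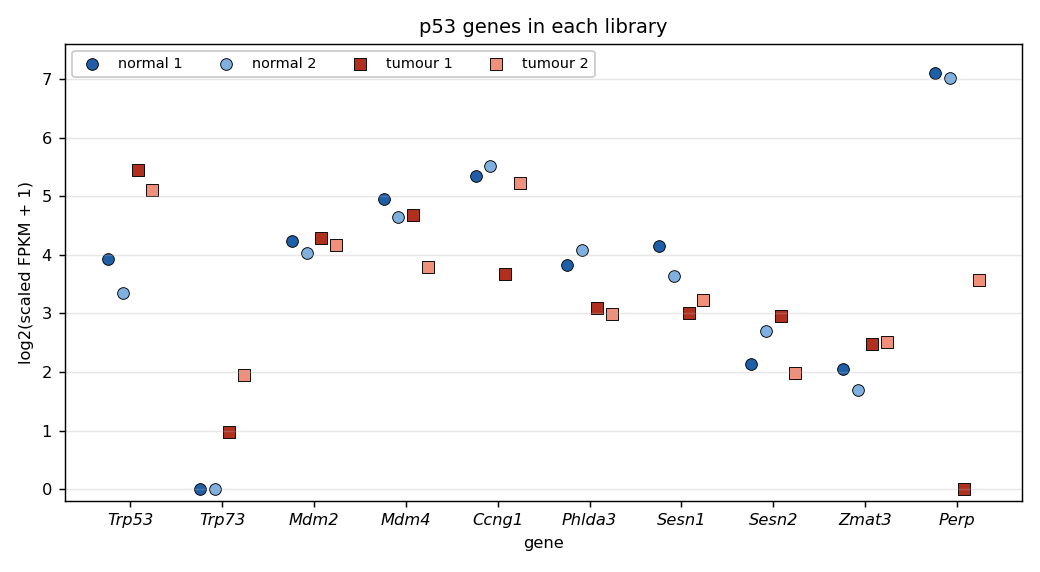
Level of each of the 10 p53 genes in each library, as log2(scaled FPKM + 1) on the vertical axis, with circles for the 2 normal prostates and squares for the 2 tumours. For Trp53 both squares lay above both circles, Mdm2 lay at nearly the same height in all 4 libraries, and Perp was high in both normal prostates, lower in tumour 2 and at 0 in tumour 1.

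Trp53 (chromosome 11, 69580359 to 69591873, plus strand) rose in the tumours. Its scaled FPKM was 14.2 and 9.12 in the normal prostates against 42.5 and 33.3 in the tumours. Both tumours lay above both normal prostates, and the tumours differed from each other by less than the normal prostates did on the log2 scale. The rise was 3.11-fold on the log2(scaled FPKM + 1) scale (log2 change 1.64 ± 0.36, limma adjusted p = 0.0439). Trp53 stood above 66.0% and 55.5% of the tested genes in the normal prostates and above 89.0% and 86.5% in the tumours. In implied fragments the normal prostates held 21.3 and 20.5 and the tumours 149.8 and 99.3. The fold change was positive under all 11 alternatives run, at 1.53 without tumour 1 and 1.81 without tumour 2. The call was lost under 5 alternatives, namely no filter on low values, no intensity trend, voom, and without normal 1 or normal 2. Among the fits of all 4 libraries the adjusted p ranged from 0.0206 to 0.0697. All 8 proliferation markers were called higher in the same tumours, with a summed level of 38.7 and 45.0 against 1454 and 699. Of these, only Mcm6, Pcna and E2f1 would have passed the filter on the normal prostates alone. In bulk tissue, fewer cells of a type and less RNA per cell cannot be told apart, and the part of proliferation and cell composition in the Trp53 result was not tested.

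Wrap53 encodes a telomerase and Cajal body protein and lies head to head with Trp53 on the opposite strand, ending 1034 bases before it in the deposited tables. Its scaled FPKM was 2.75 and 7.44 in the normal prostates against 10.5 and 20.1 in the tumours. The groups did not overlap, but the difference did not pass (log2 change 1.47 ± 0.59, adjusted p = 0.134). It was called higher for FPKM as deposited (2.30, adjusted p = 0.0439) and without tumour 1 (1.96, adjusted p = 0.00682). RefSeq has a further Wrap53 start closer to Trp53, whose promoter window shares 208 bases with that of Trp53. The Trp53 window (chr11:69580109-69580408, plus strand) is printed because the start sites of both genes fall in or beside it, with the shared bases in capitals. No p53 response element was found in it under the limits above.
Trp53: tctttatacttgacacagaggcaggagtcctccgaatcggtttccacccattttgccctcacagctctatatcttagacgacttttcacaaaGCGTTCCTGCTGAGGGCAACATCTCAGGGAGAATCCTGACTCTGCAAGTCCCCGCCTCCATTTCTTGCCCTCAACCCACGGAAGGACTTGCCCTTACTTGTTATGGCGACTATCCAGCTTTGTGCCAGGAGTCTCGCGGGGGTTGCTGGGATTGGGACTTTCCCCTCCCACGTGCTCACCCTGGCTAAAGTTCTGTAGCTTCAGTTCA

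Trp73, a p53 relative that activates many p53 target genes, was listed at 0 in the normal prostates, with tumour values of 0.969 and 2.85 scaled FPKM. It was low in all 4 libraries, and the tumour values rested on 7.8 and 22.9 implied fragments. It was tested only because both tumours exceeded an FPKM of 1, and it did not pass (adjusted p = 0.0788). With a pseudocount of 0.1 it did (adjusted p = 0.0376). The gene overlaps Trp73os and Gm26036 on the opposite strand. Mdm4 and Cdkn1a also overlap an annotated gene on the opposite strand, and Bax and Usp7 overlap one on their own strand. No source used here says whether reads were counted by strand. Reads of overlapping genes therefore cannot be told apart for these genes or for the other overlaps named below. Trp63, the third family member and a marker of basal prostate epithelium, was at 2.33 and 1.29 in the normal prostates and listed at 0 in both tumours, too low to be tested.

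The pair of inhibitors did not pass the test. Mdm2, the ubiquitin ligase of p53 (chromosome 10, 117688875 to 117710758), lay at 17.9 and 15.4 scaled FPKM in the normal prostates and at 18.6 and 17.0 in the tumours. The groups overlapped, and the log2 fold change was 0.09 ± 0.31 (adjusted p = 0.841), with an adjusted p of 0.0744 for FPKM as deposited (0.98). Mdm4, which lacks ligase activity of its own and masks the activation domain of p53, lay at 29.8 and 24.1 against 24.5 and 12.9. Tumour 2 was the lowest of the 4 and tumour 1 lay between the normal prostates. Its log2 fold change was -0.56 ± 0.41 (adjusted p = 0.350), with the opposite sign for FPKM as deposited (0.334) and for scaling to the FPKM sum without the most abundant genes (0.065). Without tumour 1 it was called lower (-0.93, adjusted p = 0.0371).

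Ratios of 2 genes within a library do not depend on the scaling between libraries. Mdm2 stood at 1.26 and 1.68 times the FPKM of Trp53 in the normal prostates and at 0.438 and 0.509 times in the tumours, so the order of the genes was turned round. The ratio of Mdm4 to Mdm2 was 1.67 and 1.57 in the normal prostates, 1.32 in tumour 1 and 0.759 in tumour 2. With 2 libraries against 2, an exact two-sided permutation test cannot give a p below 0.333, so these ratios are descriptions.

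Among the 6 targets, Perp (chromosome 10, 18845071 to 18857072) had the largest difference. Perp encodes a membrane protein of desmosomes, the junctions that rivet epithelial cells together, and takes part in p53-dependent apoptosis. It lay at 137 and 129 scaled FPKM in the normal prostates, was listed at 0 in tumour 1 and lay at 10.9 in tumour 2. Both tumours were far below both normal prostates, where Perp exceeded 96.0% and 95.3% of the tested genes. It fell 39.0-fold on the log2(scaled FPKM + 1) scale (log2 change -5.28 ± 1.18, adjusted p = 0.0446). Its direction held under all 11 alternatives, but the call was lost under 8 of them. Among the fits of all 4 libraries the adjusted p ranged from 0.0446 to 0.113. Perp was called lower by voom, without tumour 1 (-3.42) and without tumour 2 (-6.90), and a lone tumour is assumed there to vary as the normal prostates do.

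Other epithelial genes were also low in tumour 1, as the heat map of epithelial markers shows. Of 9 desmosome genes, 7 were listed at 0 in tumour 1, including the plaque genes Dsp and Pkp3, and none in tumour 2. Of these, Dsg3 was also listed at 0 in both normal prostates and Dsc3 in normal 1. Dsg2 was close to 0 there. Jup, a plaque protein shared with adherens junctions, was the exception at 26.4 in tumour 1 against 27.7 and 30.2 in the normal prostates. The summed level of the list was 78.8 and 83.5 in the normal prostates, 26.4 in tumour 1 and 67.7 in tumour 2, and of the 5 members tested none passed. All 5 basal markers were listed at 0 in tumour 1, and their sum was 73.9 and 71.6 in the normal prostates and 25.3 in tumour 2. Of 7 luminal markers, Cdh1 and Spdef were listed at 0 in tumour 1, and Krt8 (0.258) and Krt18 (0.345) were close to 0. The luminal sum was 1962 and 2332 against 356 and 1145. Most of it in tumour 1 was Hoxb13 at 295. In tumour 2, Krt8 lay at 438, above its 178 and 191 in the normal prostates, and the other luminal markers lay below theirs. The ratio of Perp to Trp53 was 9.65 and 14.2 in the normal prostates, 0 in tumour 1 and 0.327 in tumour 2. The part of cell composition in the Perp result was not tested.

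**Figure D2:**
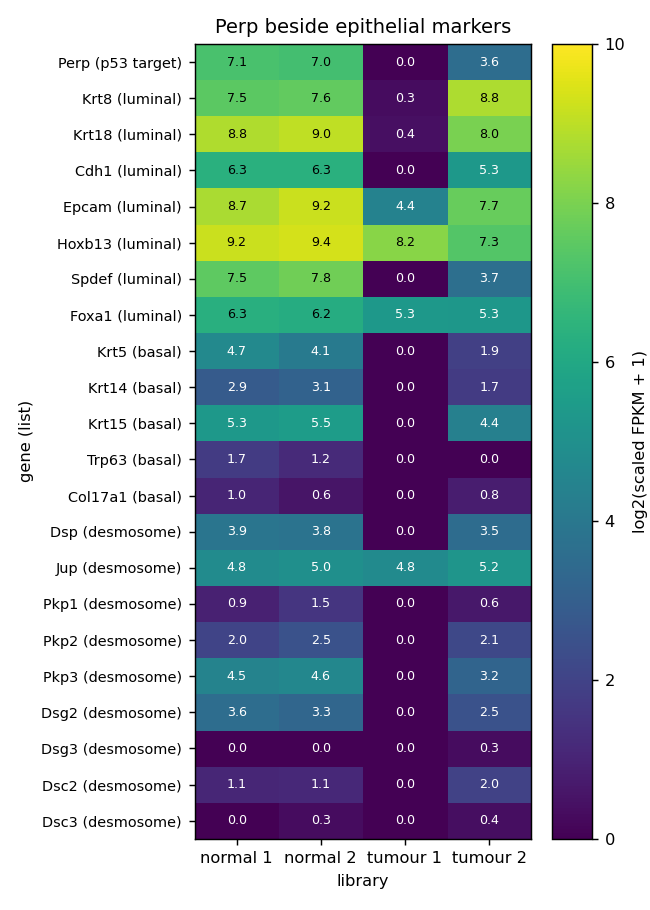
Perp and 21 entries of the luminal, basal and desmosome marker lists by library, coloured and labelled by log2(scaled FPKM + 1). In tumour 1, Perp, all 5 basal markers and 7 of 9 desmosome genes stood at 0 and Dsg2 rounds to it, while Hoxb13, Foxa1 and Jup remained well expressed.

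The other 5 targets did not pass. Ccng1, cyclin G1, a feedback regulator of p53 whose promoter match is printed above, lay at 39.8 and 44.5 scaled FPKM in the normal prostates, at 11.8 in tumour 1 and at 36.4 in tumour 2 (log2 change -0.98 ± 0.57, adjusted p = 0.255). The tumours differed from each other by 1.54 on the log2 scale, more than 84.9% of the tested genes did, and the authors' deposited intervals of the 2 tumours were apart. Without tumour 2, Ccng1 was called lower (-1.72, adjusted p = 0.000431).

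Phlda3, a competitor of Akt for membrane lipids, lay at 13.2 and 15.9 in the normal prostates and at 7.51 and 6.92 in the tumours. The 2 values of each group were close and the groups did not overlap, but the log2 fold change of -0.92 ± 0.35 did not pass (adjusted p = 0.120). For FPKM as deposited all 4 libraries lay between 10.09 and 10.98, so the difference appears after scaling. Sesn1 and Sesn2 encode sestrins, stress proteins that restrain the growth kinase complex mTORC1. Sesn1 lay at 16.8 and 11.5 against 7.03 and 8.34 (log2 change -0.79 ± 0.38, adjusted p = 0.189), with the opposite sign for FPKM as deposited (0.072). Sesn2 lay at 3.42 and 5.52 against 6.74 and 2.97, so the groups overlapped (log2 change 0.05 ± 0.53, adjusted p = 0.955), and its sign turned under quantile normalization (-0.307). Each sestrin gene overlaps another annotated gene on its own strand. Zmat3, an RNA-binding protein that acts on splicing and transcript stability, lay at 3.13 and 2.25 against 4.60 and 4.68, with the tumours nearly equal (log2 change 0.62 ± 0.41, adjusted p = 0.302).

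In all, the groups did not overlap for 3 p53 genes that were higher in the tumours and 4 that were lower, against 71.1% of all genes tested (37.7% higher and 33.3% lower). The median log2 fold change of the 10 was -0.26, beside 0.07 over all genes tested. For FPKM as deposited it was 0.57, below the 0.86 of all genes tested. With the reported scaling but without Trp73, which was at 0 in both normal prostates, the median was -0.56. The median of all genes without those at 0 in both normal prostates was not taken, so this value has no background beside it. Between the 2 tumours, the authors' intervals as deposited, before scaling, were apart for Trp73, Mdm4, Ccng1 and Perp and overlapped for the other 6 genes. Between the normal prostates they were apart for Mdm4 alone. Whether intervals are apart can depend on the scaling between libraries, as for Mdm4 in the normal prostates and for Trp73 and Sesn2 in the tumours.

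**Figure D3:**
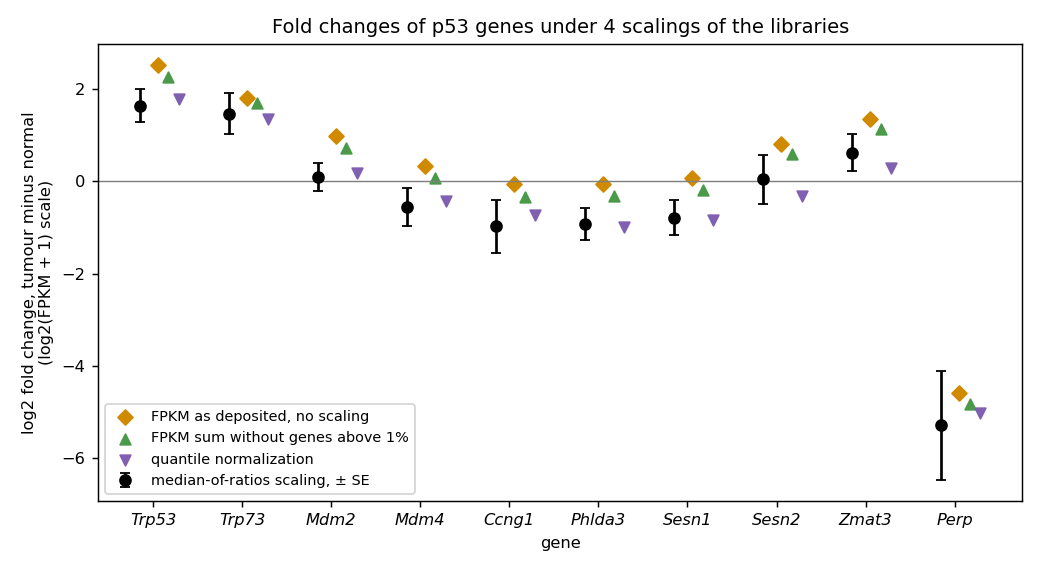
Log2 fold change, tumour minus normal, of each p53 gene under 4 scalings of the libraries, with the SE of the reported fit as bars. Trp53 and Perp kept their direction under all 4, Mdm4, Sesn1 and Sesn2 changed sign, and Ccng1 and Phlda3 came close to 0 for FPKM as deposited.

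The other regulators of p53 were followed in a list of 27 genes, of which 26 were tested. Of these, 3 were called higher, 0 lower and 23 did not pass, which is close to the share of all genes called higher. The median log2 fold change was 0.21, beside 0.07 over all genes tested. For FPKM as deposited it was 1.05, beside 0.86 over all genes tested. In that setting 9 of the 26 were called higher, beside 3681 of all 13162 genes tested. At an unadjusted p under 0.05 the reported fit gave 8 of 26, a smaller share than the 39.8% of all genes tested. Without tumour 2 the median of the regulators was 0.27, beside -0.14 over all genes tested in that fit.

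Cdkn2a, whose alternative first exons give Arf, the inhibitor of Mdm2, and the CDK inhibitor p16, rose the furthest of the regulators. The normal prostates were listed at 0 and the tumours reached 88.7 and 72.4 scaled FPKM (adjusted p = 0.0183), on 142.3 and 96.8 implied fragments. In the tumours it stood above 95.4% and 94.6% of the tested genes. Cdkn2a passed the filter on low values only through the tumours, and the gene-level value does not separate Arf from p16. The call was lost without normal 1 (adjusted p = 0.0923) or normal 2 (0.0769) and in none of the other alternatives that tested the gene.

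Chek1, the checkpoint kinase of replication stress, rose 6.17-fold from 1.46 and 0 to 11.4 and 6.54 (log2 change 2.62 ± 0.61, adjusted p = 0.0481). Chek1 would not have passed the filter on the normal prostates alone. Hipk2, a kinase that phosphorylates p53 for apoptosis, rose 3.54-fold from 0.702 and 0.485 to 4.83 and 4.43 (log2 change 1.82 ± 0.38, adjusted p = 0.0398). Hipk2 overlaps Tbxas1 on the opposite strand, in the normal prostates it held 1.4 and 1.6 implied fragments, and it passed the filter only through the tumours. Both calls were lost under quantile normalization (adjusted p = 0.0803 and 0.0859), with a pseudocount of 0.1 and without the filter on low values. Chek1 was also lost by voom (adjusted p = 0.0636).

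Ppm1d, the phosphatase Wip1 that dampens p53 signalling and is itself a p53 target, lay at 5.53 and 5.39 against 14.58 and 14.99 and just missed the threshold (log2 fold change 1.29, adjusted p = 0.0621). It was called higher for FPKM as deposited (2.13, adjusted p = 0.0225) and for the FPKM sum (1.88, adjusted p = 0.0302). The log2 fold change of Ppm1d was 1.36 without tumour 1 and 1.27 without tumour 2. Atm lay at 3.80 and 4.02 against 5.20 and 4.01 (adjusted p = 0.757), and Chek2, its downstream kinase, at 8.389 and 8.997 against 7.828 and 8.973 (adjusted p = 0.934). Usp7, which removes ubiquitin from Mdm2 and p53, lay at 11.1 and 13.4 against 17.0 and 14.1 (adjusted p = 0.500). Only for FPKM as deposited was Usp7 called higher (1.21, adjusted p = 0.0454). The fold change of Atm turned under quantile normalization (-0.133) and that of Chek2 for FPKM as deposited (0.799).

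Of 37 further p53 targets, 36 were tested. Of these, 3 were called higher, 2 lower and 31 did not pass, shares near those of all genes tested. The median log2 fold change was 0.06, beside 0.07 over all genes tested. For FPKM as deposited it was 0.83, beside 0.86 over all genes tested. In that setting 5 were called higher and 0 lower, beside 3681 and 427 of all 13162 genes tested. At an unadjusted p under 0.05 the reported fit gave 11 of 36, again a smaller share than that of all genes tested. Without tumour 2 the median of the targets was -0.28, and that of all genes tested in that fit was also negative (-0.14).

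Plk3, a stress kinase, rose 4.68-fold from 0 and 0.291 to 5.15 and 3.59 (adjusted p = 0.0317) and overlaps Tctex1d4 on the opposite strand. Pidd1, the death domain protein of the PIDDosome that activates caspase-2, rose 6.97-fold from 0.345 and 0.935 to 14.4 and 7.21 (log2 change 2.80 ± 0.51, adjusted p = 0.0329). Trp53i11, a p53-induced gene, rose 13.4-fold from 0.757 and 1.02 to 48.2 and 12.1 (log2 change 3.75 ± 0.72, adjusted p = 0.0352). The normal values of these 3 genes rested on at most 4.0 implied fragments, and they too passed the filter only through the tumours. Without the filter on low values all 3 calls were lost (adjusted p = 0.0602, 0.0650 and 0.0671). Under quantile normalization those of Plk3 (adjusted p = 0.0685) and Pidd1 (0.05001) were lost, and by voom that of Trp53i11 (0.0909).

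Rps27l, a ribosomal protein paralog that p53 induces and whose promoter match is printed above, fell from 805 and 737 to 227 and 245 scaled FPKM (log2 change -1.71 ± 0.22, adjusted p = 0.0219). Its call was lost for FPKM as deposited (-0.77, adjusted p = 0.0795) and under quantile normalization (-0.94, adjusted p = 0.0625), and its level is uncertain because it has a close paralog, Rps27, and how the authors assigned reads between them is unknown. Ei24, an endoplasmic reticulum protein of autophagy, fell from 68.1 and 71.2 to 32.9 and 31.9 (log2 change -1.08 ± 0.25, adjusted p = 0.0477), and overlaps Gm26787 on the opposite strand. Its call was lost under 8 of 11 alternatives, among them FPKM as deposited (-0.16, adjusted p = 0.652), quantile normalization (adjusted p = 0.121) and the FPKM sum (0.227), and was kept with a pseudocount of 0.1 and without either tumour.

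The best known effectors were not called. Cdkn1a, the CDK inhibitor p21, lay at 25.1 and 45.8 scaled FPKM in the normal prostates and at 16.2 and 27.0 in the tumours, so the groups overlapped (log2 change -0.67 ± 0.45, adjusted p = 0.311). Its sign turned for FPKM as deposited (0.239), and without tumour 2 it was called lower (-1.0, adjusted p = 0.0367). The ratio of Cdkn1a to Trp53 within a library was 1.76 and 5.01 in the normal prostates against 0.382 and 0.811 in the tumours. Bax, the pore-forming effector of apoptosis, was even across the libraries at 78.1, 78.9, 77.4 and 73.9 (log2 change -0.05 ± 0.24, adjusted p = 0.883), and its sign turned for FPKM as deposited (0.878), for the FPKM sum (0.599) and under quantile normalization (0.427). Bbc3, which encodes the BH3-only protein Puma, lay at 1.08 and 4.62 against 11.6 and 3.29 (adjusted p = 0.338) and was called higher without tumour 2 (1.86, adjusted p = 0.0167). Pmaip1, which encodes Noxa, had normal values of 0 and tumour values of 0.337 and 2.97, too low to be tested.

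**Figure D4:**
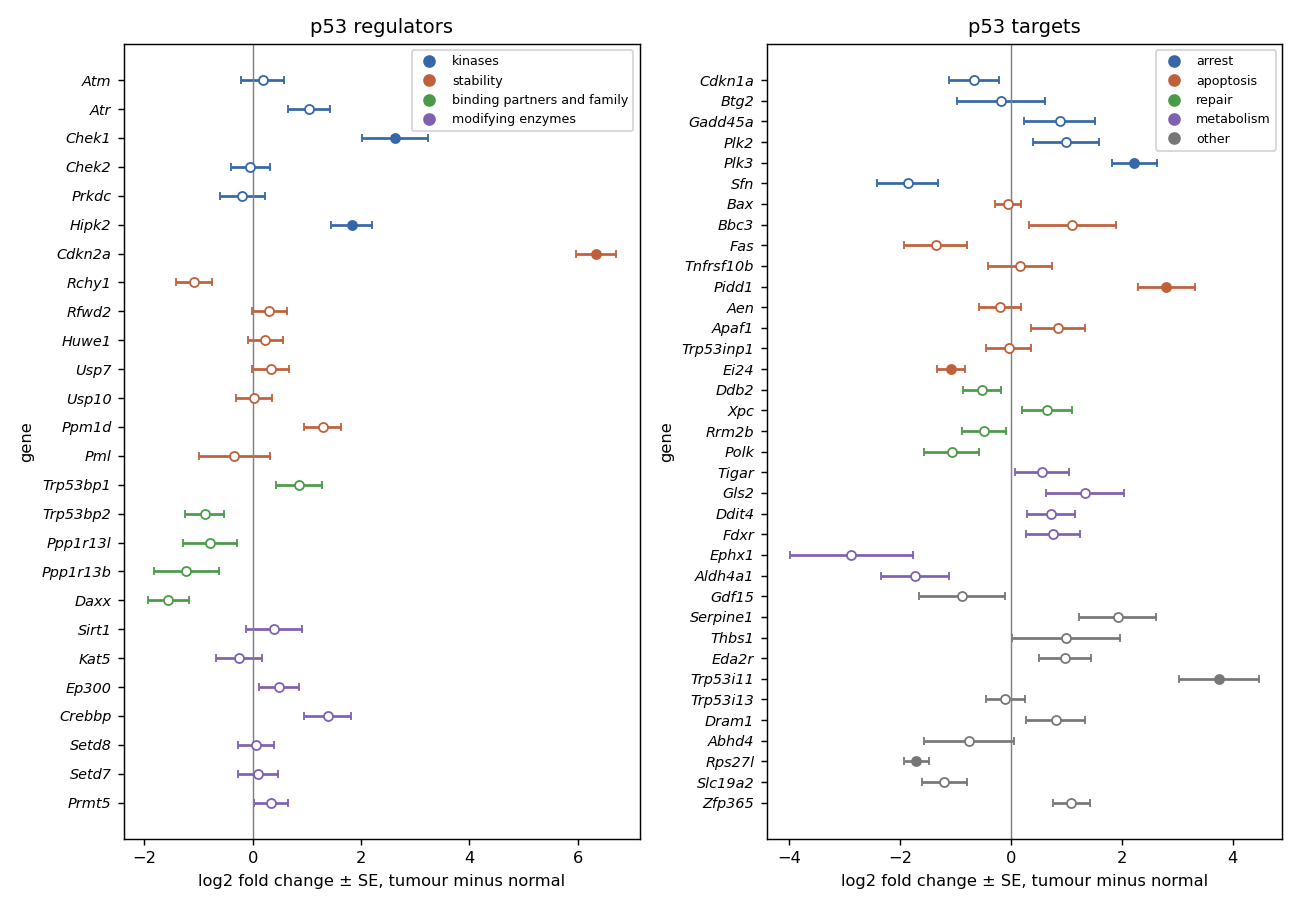
Log2 fold change with SE, tumour minus normal, of the 26 tested p53 regulators (left) and 36 tested p53 targets (right), coloured by role, with filled points for genes past the threshold. Cdkn2a lay furthest to the right, and the targets lay on both sides of 0.

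The tissue labels were compared with the marker lists. All 8 neuroendocrine markers, like the proliferation markers, were called higher in the tumours. However, each neuroendocrine marker, and Birc5 and Ccnb1 of the proliferation list, passed the filter only through the tumours and had to differ. Mki67, Top2a and Cdk1 reached an FPKM of 1 in only 1 normal prostate, so they too needed a tumour to pass. Only Mcm6, Pcna and E2f1 reached it in both normal prostates. The neuroendocrine sum was 0.408 and 0.914 in the normal prostates against 628 and 849 in the tumours. The proliferation list covers Mki67, Top2a, Birc5, Mcm6, Ccnb1, Cdk1, Pcna and E2f1. Smooth muscle markers summed to 582 and 542 in the normal prostates, 4.19 in tumour 1 and 105 in tumour 2. Fibroblast markers summed to 116 and 93.9 against 43.4 and 331. Most of the normal sum was Dcn, at 104 and 84.2 against 5.45 and 111, while the other 4 of 5 fibroblast markers were higher in both tumours. For Lum, tumour 1 lay at 0.441 on 2.0 implied fragments, beside 0.337 on 1.0 in normal 2. Lum was not tested, and of the 4 fibroblast markers tested none passed. Endothelial markers summed to 2.63 and 1.22 against 0.830 and 19.8, and immune markers to 5.01 and 1.45 against 14.7 and 37.2. Of the 5 immune markers only Cd68 was higher in both tumours, at 0 and 0 against 13.05 and 31.2. The 3 genes whose pattern over the 4 libraries lay nearest to Trp53, by Euclidean distance of centred log2 values among 8876 other genes, were Fip1l1 (0.078), Gins2 (0.10) and Cpeb2 (0.143). Those nearest to Perp were Pgap2 (0.300), Dcxr (0.368) and Aldh1a1 (0.371).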

How the data were processed

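For each library the deposited file is a Cufflinks table of genes that gives FPKM and the limits of a confidence interval, per the file headers. The submitters' processing notes name Trim Galore, Cufflinks 2.1.1 with Cuffdiff 2.1.1, TopHat2 2.0.8 and, as the genome, mm10 or GRCm38. No source used here gives the annotation, the settings or a scaling of libraries to each other. From each table of 24883 rows, 27 rows whose names had become dates were left out and repeated names were summed. Positions are those of the tables, with starts moved to count from 1; strand and overlaps are from GENCODE M21.

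All later steps were made here with R 4.3.3, limma 3.58.1, Python 3.11.15, pandas 2.3.3, numpy 2.4.6 and matplotlib 3.10.9. FPKM were divided by median-of-ratios factors over the 11469 genes above 0 in all 4 libraries (0.793 and 0.689 for the normal prostates, 1.34 and 1.50 for the tumours). Genes with an FPKM of at least 1 in at least 2 libraries were tested on log2(scaled FPKM + 1) by limma with an intensity trend, two-sided, with 2 residual degrees of freedom and a prior of 2.85. The fit was tested on simulated data. Fragments were implied from the interval width, taken as 2 Poisson standard deviations on each side. Of low rows with a single start, 71.0 to 72.5% came within 0.1 of a whole number. Intervals and implied fragments cover counting error only.

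Named were all 10 members, every listed regulator or target past the threshold, 11 regulators and targets whatever their result, Wrap53, the markers, and the 3 genes nearest to Trp53 and to Perp among those with a mean scaled FPKM of at least 5. The members, the lists and these rules were chosen with earlier results of these data known. Protein sequences were not used here. One luminal marker of the list is not reported here, and the luminal values are those of the others.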

Additional observations from a re-analysis of the deposited data

How the results depend on the processing

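With FPKM as deposited, 1 of the 10 p53 genes, 9 regulators and 4108 of all genes were called, against 2, 3 and 2384 as reported. Quantile normalization called 1 p53 gene, 1 regulator and 1 target (5 as reported), beside 1713 of all 13162 genes tested. Scaling to the FPKM sum without genes above 1% called 1 p53 gene and 5 regulators, beside 3091 of all genes. A pseudocount of 0.1 called 2 p53 genes (Trp53 and Trp73, with Perp lost), 1 regulator and 5 targets, beside 2120 of all genes. Without the filter on low values the counts were 0 p53 genes, 1 regulator, 1 target and 494 genes in all, with 17072 genes tested in place of 13162. Without the intensity trend 0 p53 genes were called, beside 2053 of all genes. By voom 1 p53 gene and 3 targets were called, beside 2061 of all genes. Leaving out 1 library at a time gave 0 to 3 p53 genes, 0 to 9 regulators, 0 to 14 targets and 0 to 5575 genes. The lowest counts came without either normal prostate, and the highest of regulators, targets and all genes came without tumour 2. The fit without tumour 2 tested 24 regulators, 28 targets and 11043 genes in all. Its filter left out Cdkn2a, Hipk2, Plk3, Pidd1 and Trp53i11, all called higher in the reported fit. The median log2 fold change there was 0.266 for the regulators and -0.284 for the targets, beside -0.136 over all genes tested. Leaving out 1 library at a time, the log2 fold change of Mdm2 ranged from -0.042 to 0.171, that of Sesn2 from -0.370 to 0.531 and that of Chek2 from -0.144 to 0.109. By voom Sesn2 stood at -0.010, and with the FPKM sum Chek2 stood at 0.546. Among the 10 genes and the regulators and targets named whatever their result, the other changes of sign were those of Mdm4 (0.334 and 0.065), Sesn1 (0.072), Sesn2 (-0.307), Cdkn1a (0.239), Bax (0.878, 0.427 and 0.599), Atm (-0.133) and Chek2 (0.799). The cause of these changes was not tested beyond the construction of each alternative. No paired analysis was possible because the normal prostates and the tumours came from mice of different genotype. The labels also give no replicate numbers. Depth limits the normal values of Trp73, Cdkn2a, Chek1, Hipk2, Plk3, Pidd1 and Trp53i11, which rested on few implied fragments or none. Other listed genes also changed sign, among them Btg2 (-1.29 to 1.03) and Thbs1 (-0.28 to 2.32).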

Other observations

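Several p53 targets that did not pass differed widely between tumour 1 and tumour 2. They were picked after their values were seen and were not tested between single libraries. Gadd45a, a stress-induced partner of cell cycle kinases, lay at 86.7 scaled FPKM in tumour 1 and 24.2 in tumour 2, beside 27.3 and 22.2 in the normal prostates. Btg2, an antiproliferative gene, went the other way, at 11.8 in tumour 1 and 61.0 in tumour 2, beside 27.0 and 35.1. Thbs1, which encodes the secreted angiogenesis inhibitor thrombospondin 1, lay at 1.84 and 16.1 in the tumours and at 3.99 and 1.46 in the normal prostates. Ephx1, the microsomal epoxide hydrolase, lay at 1.41 and 22.8 in the tumours and at 49.0 and 60.7 in the normal prostates.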
